A study of Mus musculus with 9 samples.

Results

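The matrix metalloproteinase (Mmp), Adamts and Timp families of mouse osteoblasts were described as 44 genes, 22 of them Mmp, 18 Adamts and 4 Timp, out of 22180 genes with values. Members were the genes whose symbol is Mmp, Adamts or Timp followed by a number, with an optional letter for Mmp, on a transcript cluster (the array's group of probes for a transcript) annotated to a single gene. A total of 48 clusters met this rule. Mmp11, Mmp7, Adamts8 and Adamts14 each had more than 1, and the cluster with the highest mean over the 9 arrays then stood for the gene. Mmp15 and Adamts2 had no single-gene cluster and were not analysed here. The rule itself uses symbols and mean levels, but the members were chosen with earlier results of these data known.

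Osteoblasts, the cells that build bone, were released by enzyme digestion of calvaria of C57BL/6J mice, 7 to 10 days old, and used at passage 2. They were differentiated with β-glycerophosphate and ascorbic acid starting on day 3, were left without serum for 24 h starting on day 10, and then received a treatment for 4 h in medium with albumin and no serum. The groups of 3 arrays each were 100 nM hPTH(1-34), a human parathyroid hormone (PTH) fragment that activates the PTH receptor Pth1r, 1 µM bPTH(7-34), the bovine (D-Trp12,Tyr34) fragment in amide form, which lacks the first residues and is known as an antagonist of the receptor's cAMP response, and vehicle. All groups share strain, culture, serum withdrawal and time. The series text states that the osteoblasts were prepared independently for every biological replicate, and the labels do not say whether a preparation was divided among the treatments. The peptides differ in dose as well as in structure, so a difference between them is not a matched-dose comparison.

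Mmp proteins are zinc-dependent proteases, mostly secreted as inactive precursors, that cut collagens and other matrix proteins. Adamts proteases carry thrombospondin-type repeats that bind matrix. Some of them cut the proteoglycans aggrecan and versican, and others trim the ends of procollagens so that fibrils can form. Timp proteins sit in the active site of these enzymes and block them. In bone, Mmp13 is the main interstitial collagenase of rodents, and in rat osteoblastic cells it is a classical PTH target whose promoter responds through a RUNX site and an AP-1 site.

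Levels were log2 RMA expression, a background-corrected and quantile-normalised summary of each cluster's probes. Array medians lay between 1.67 and 1.76. A background limit of 1.68 was taken from 1088 olfactory receptor genes, 95% of which had vehicle means below it. A total of 11 members had means below it in every group, namely Mmp1a, Mmp1b, Mmp7, Mmp8, Mmp10, Mmp20, Mmp21, Adamts18, Adamts19, Adamts20 and Timp4, and 33 did not. Of the osteoblast markers, 6 of 8 were measured: Col1a1 lay between 12.14 and 12.42, while Bglap was below the limit and Sp7 reached only 1.27 to 2.34. Group differences were tested with limma on all 23521 single-gene clusters, and adjusted p-values (Benjamini-Hochberg, two-sided, threshold 0.05) are over all of them.

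**Figure D1:**
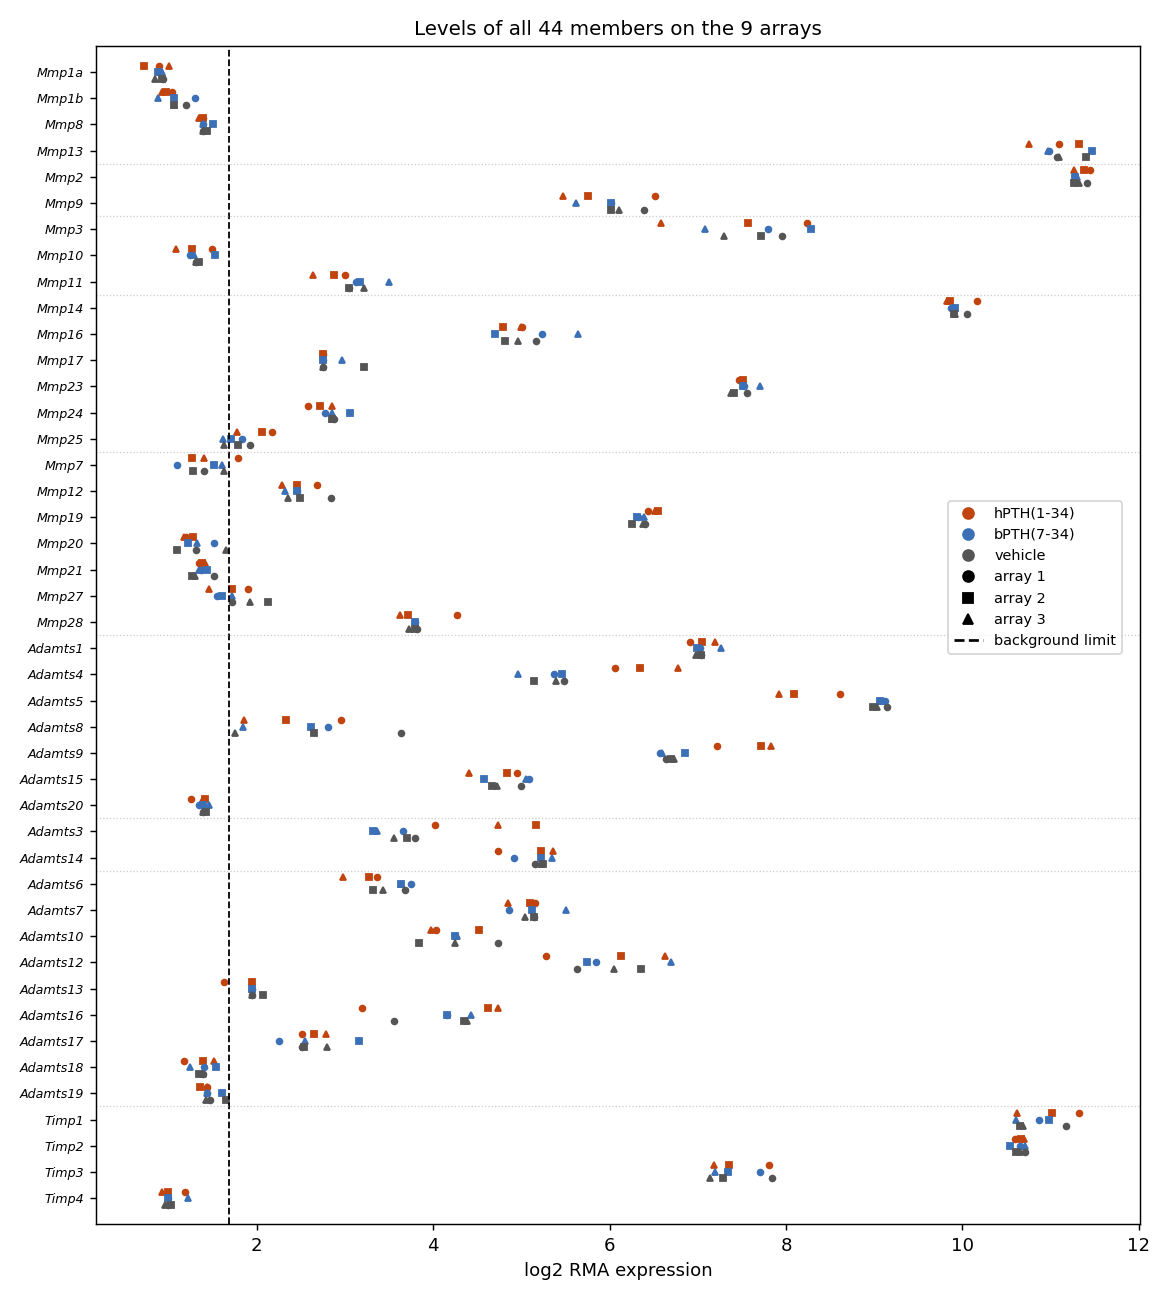
Level of each of the 44 members on all 9 arrays (log2 RMA expression, x axis), grouped by role, with colour for treatment, marker shape for the array number and a dashed line at the background limit of 1.68. The groups lie on top of each other for most members, and Adamts4, Adamts9 and Adamts3 stand to the right and Adamts5 to the left in hPTH(1-34).

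The promoters of 3 genes are given first, because Adamts9 is the member that passed a test, Adamts3 had the largest difference between the peptides, and Mmp13 is the member best known as a PTH target. Each is the 250 bases upstream of the RefSeq start, in the gene's orientation, 5′ to 3′, from RefSeq's GRCm38.p6 annotation, where 30 of the 44 members had an entry. Capitals mark matches, on either strand, to a cAMP response element (CRE, TGACGTCA), the CRE's core (TGACG, which the full CRE contains), an AP-1 site (TGANTCA) or a RUNX site (ACCACA).
Adamts9, chr6:92943535-92943784, minus strand: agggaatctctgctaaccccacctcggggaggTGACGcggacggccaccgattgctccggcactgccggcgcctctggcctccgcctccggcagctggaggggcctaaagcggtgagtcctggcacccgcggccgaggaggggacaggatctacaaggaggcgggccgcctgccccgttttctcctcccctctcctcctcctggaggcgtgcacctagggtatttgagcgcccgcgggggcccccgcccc
Adamts3, chr5:89883335-89883584, minus strand: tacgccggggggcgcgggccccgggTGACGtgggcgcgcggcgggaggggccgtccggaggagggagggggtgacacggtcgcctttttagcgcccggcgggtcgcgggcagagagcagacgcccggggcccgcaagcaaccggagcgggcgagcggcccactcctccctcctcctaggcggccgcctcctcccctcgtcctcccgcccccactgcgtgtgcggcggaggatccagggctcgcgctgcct
Mmp13, chr9:7272264-7272513, plus strand: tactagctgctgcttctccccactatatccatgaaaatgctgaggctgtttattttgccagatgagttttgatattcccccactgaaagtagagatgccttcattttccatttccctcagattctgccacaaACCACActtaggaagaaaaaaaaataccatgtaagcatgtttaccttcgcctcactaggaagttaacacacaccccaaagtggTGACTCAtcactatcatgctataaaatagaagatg
The Mmp13 window holds an AP-1 match 35 to 29 bases before the start and a RUNX match 118 to 113 bases before it. The Adamts9 window holds the CRE core 218 to 214 bases before the start, and the Adamts3 window holds it 225 to 221 bases before it. Such letters are common: of all 32851 promoters in the table, 17.8% hold the core, 6.75% the AP-1 letters, 14% the RUNX letters and 1.55% the full CRE. Among the 33 promoters of members, 5 hold the core, 8 the AP-1 letters, 6 the RUNX letters and 0 the full CRE. A match describes the letters and is not a site shown to be used.

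The proteoglycan-cutting Adamts enzymes held the clearest differences of the families, and they ran in both directions. Adamts9, which cuts aggrecan and versican, was 1.89-fold higher with hPTH(1-34) than with bPTH(7-34), the only family difference past the threshold. Adamts4, known as an aggrecanase, was 2.08-fold higher with hPTH(1-34) than with vehicle, and Adamts5, the other principal aggrecanase, was 1.80-fold lower, both with adjusted p-values just above 0.05. Adamts1, Adamts8 and Adamts15, enzymes of the same kind, gave intervals that include 0.

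Adamts9 read 7.22, 7.72 and 7.83 on the hPTH(1-34) arrays, 6.57, 6.85 and 6.59 on the bPTH(7-34) arrays and 6.64, 6.70 and 6.73 on the vehicle arrays (log2 level). Every hPTH(1-34) array lay above all 6 others, and the other groups overlapped. The means were 7.59 ± 0.33 with hPTH(1-34), 6.67 ± 0.16 with bPTH(7-34) and 6.69 ± 0.05 with vehicle (SD, n = 3 each). Adamts9 rose relative to bPTH(7-34) by a log2 difference of 0.92 ± 0.16 (SE; 95% interval 0.57 to 1.27; adjusted p = 0.0488). Against vehicle the log2 difference was 0.90 ± 0.16 (0.55 to 1.25), a 1.87-fold higher level with adjusted p = 0.0536. The difference between bPTH(7-34) and vehicle was -0.02, with an interval of -0.37 to 0.33. These are bulk cultures, in which more cells of a type and more RNA per cell cannot be told apart.

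Adamts4 read 6.06, 6.34 and 6.77 with hPTH(1-34), 5.37, 5.46 and 4.96 with bPTH(7-34) and 5.48, 5.14 and 5.39 with vehicle. The lowest hPTH(1-34) array was above the highest of the other 6. The log2 difference of hPTH(1-34) was 1.13 ± 0.20 from bPTH(7-34) (2.18-fold, adjusted p = 0.0535) and 1.05 ± 0.20 from vehicle (interval 0.61 to 1.50, adjusted p = 0.0691). Neither passed. The difference of bPTH(7-34) from vehicle was -0.07, with an interval of -0.52 to 0.37.

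Adamts5 went the other way, with 8.61, 8.09 and 7.92 for hPTH(1-34), 9.12, 9.07 and 9.07 for bPTH(7-34) and 9.14, 8.99 and 9.03 for vehicle. All hPTH(1-34) arrays were below the 6 others, which spanned little. The log2 difference of hPTH(1-34) was -0.88 ± 0.16 from bPTH(7-34) (a 1.84-fold lower level, adjusted p = 0.0583) and -0.85 ± 0.16 from vehicle (interval -1.20 to -0.49, adjusted p = 0.0691). Neither passed. The difference of bPTH(7-34) from vehicle was 0.03, with an interval of -0.32 to 0.39.

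Adamts1 is the neighbour of Adamts5 on chromosome 16 in the RefSeq annotation and also cuts aggrecan and versican. It read 6.91, 7.05 and 7.19 with hPTH(1-34), 7.03, 6.99 and 7.26 with bPTH(7-34) and 7.04, 7.04 and 6.98 with vehicle. The groups overlapped, and the log2 difference of hPTH(1-34) from vehicle was 0.03 ± 0.11 (-0.21 to 0.27). Adamts15 spanned 4.41 to 4.95 with hPTH(1-34), 4.58 to 5.09 with bPTH(7-34) and 4.67 to 4.99 with vehicle. Adamts8, which lies beside Adamts15 on chromosome 9, was the least precise member: its vehicle arrays alone spanned 1.75 to 3.64, and the hPTH(1-34) difference from vehicle was -0.30 ± 0.47. Adamts20 was below the background limit. For hPTH(1-34) against vehicle, 3 of these 7 proteoglycanases had an unadjusted p under 0.05, 2 of them higher and 1 lower, against 9.31% of all clusters. With so few genes this count is a description of them.

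**Figure D2:**
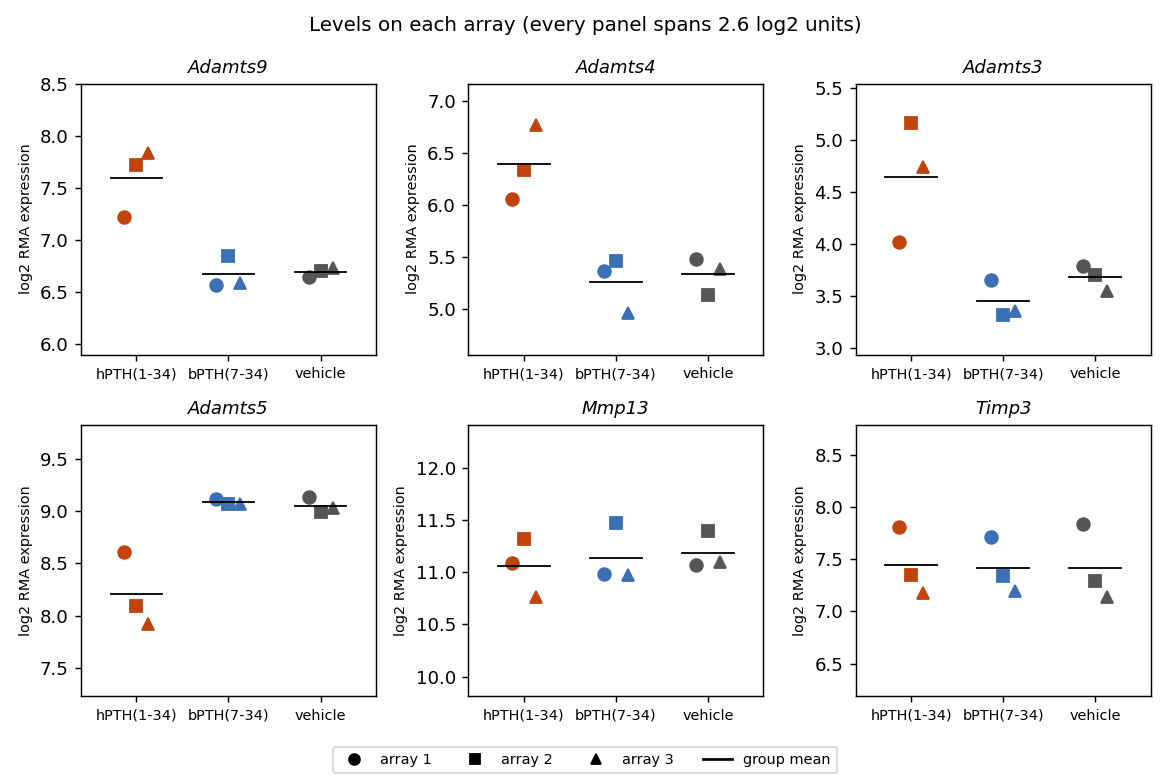
Log2 RMA expression (y axis) of single members on the hPTH(1-34), bPTH(7-34) and vehicle arrays (x axis), with a marker for each array and the group means. Adamts9, Adamts4 and Adamts3 are higher and Adamts5 is lower on all 3 hPTH(1-34) arrays than on the 6 others, with the hPTH(1-34) array numbered 1 closest to them, while the groups overlap for Mmp13 and Timp3.

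In each of Adamts9, Adamts4, Adamts5 and Adamts3, the hPTH(1-34) array numbered 1 lay closest to the other groups. Within array number 1 the hPTH(1-34) minus vehicle difference was 0.58 for Adamts9, 0.58 for Adamts4, -0.53 for Adamts5 and 0.23 for Adamts3. Within number 2 it was 1.02, 1.20, -0.90 and 1.46 for these genes in the same order, and within number 3 it was 1.10, 1.38, -1.11 and 1.19. Without that array the differences from vehicle were 1.08 for Adamts9, 1.22 for Adamts4, -1.05 for Adamts5 and 1.27 for Adamts3, with adjusted p = 0.00641, 0.0286, 0.00429 and 0.0118, and all 4 passed. Adamts9 then also passed against bPTH(7-34), with a log2 difference of 1.10 (adjusted p = 0.00603). The array numbered 1 was picked because it lay closest to the other groups for these same genes. Larger differences without it follow from that choice, so these passes are no independent support. Leaving out any single one of the other 8 arrays left 0 members called by limma in either comparison, and the Adamts9 difference between hPTH(1-34) and bPTH(7-34) then lay between 0.80 and 1.01. Counts over all clusters moved in the same way. Without the hPTH(1-34) array numbered 1, 259 clusters were called against vehicle and 262 against bPTH(7-34), in place of 106 and 109. Without any one of the others, 0 to 72 were called against vehicle and 2 to 70 against bPTH(7-34).

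Adamts3 and Adamts14 are procollagen N-proteinases, which remove the amino-terminal propeptides of fibrillar procollagens. Adamts3 read 4.02, 5.16 and 4.74 with hPTH(1-34), 3.66, 3.32 and 3.36 with bPTH(7-34) and 3.79, 3.70 and 3.55 with vehicle. It was singled out after its values were seen, since its hPTH(1-34) arrays also lay above all 6 others. The log2 difference of hPTH(1-34) was 1.19 ± 0.25 from bPTH(7-34) (2.29-fold, interval 0.64 to 1.75, adjusted p = 0.0932) and 0.96 ± 0.25 from vehicle (1.95-fold, 0.40 to 1.52, adjusted p = 0.201). Neither passed, and its hPTH(1-34) arrays spread more (SD 0.58) than its bPTH(7-34) arrays (0.19) or vehicle arrays (0.12). The difference of bPTH(7-34) from vehicle was -0.23, with an interval of -0.79 to 0.32. Adamts14 read 4.73, 5.22 and 5.36 with hPTH(1-34), 4.92, 5.22 and 5.35 with bPTH(7-34) and 5.15, 5.24 and 5.22 with vehicle, and these groups overlapped.

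The 9 other Adamts genes gave hPTH(1-34) minus vehicle differences between -0.27 and 0.09, with 0 called and 0 at an unadjusted p under 0.05 by limma. Adamts6 was the one with separated groups, against bPTH(7-34) alone. It read 3.36, 3.27 and 2.98 with hPTH(1-34), 3.75, 3.63 and 3.63 with bPTH(7-34) and 3.68, 3.32 and 3.43 with vehicle. The log2 difference of hPTH(1-34) was -0.47 ± 0.13 from bPTH(7-34) (adjusted p = 0.238) and -0.27 ± 0.13 from vehicle (adjusted p = 0.57). Adamts12, which can cut the cartilage protein Comp, varied widely within groups, with 5.28 to 6.63 for hPTH(1-34), 5.74 to 6.70 for bPTH(7-34) and 5.63 to 6.36 for vehicle. Adamts16 did the same, with 3.19 to 4.74 for hPTH(1-34), 4.16 to 4.43 for bPTH(7-34) and 3.56 to 4.38 for vehicle. Adamts13, the protease of von Willebrand factor, gave 1.94 on 6 arrays, so its values hold little information on change. Adamts7, Adamts10 and Adamts17 also overlapped between the groups, with 4.85 to 5.50, 3.84 to 4.74 and 2.25 to 3.16 over all 9 arrays in that order, and Adamts18 and Adamts19 were below the background limit.

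No Mmp gene passed in any comparison, and the 22 differences of hPTH(1-34) from vehicle ran from -0.27 to 0.22, with adjusted p from 0.598 to 0.995. By limma, 0 of the 22 had an unadjusted p under 0.05 against vehicle, against 9.31% of all clusters. Mmp13 read 11.09, 11.32 and 10.76 with hPTH(1-34), 10.98, 11.47 and 10.97 with bPTH(7-34) and 11.07, 11.40 and 11.10 with vehicle. The 3 groups overlapped throughout. The hPTH(1-34) minus vehicle interval of -0.55 to 0.28 leaves out a 2-fold change in either direction (1 on the log2 scale), on the scale of the array and at 4 h. For bPTH(7-34) the difference from vehicle was -0.05, with an interval of -0.46 to 0.36. The other collagenases, Mmp8 and the mouse counterparts of human MMP1, Mmp1a and Mmp1b, were below the background limit.

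Mmp13 lies in a run of 10 Mmp genes on chromosome 9 with no other protein-coding gene between them in the RefSeq annotation, in the order Mmp13, Mmp12, Mmp1b, Mmp3, Mmp1a, Mmp10, Mmp8, Mmp27, Mmp20 and Mmp7. Only Mmp13, Mmp12, Mmp3 and Mmp27 of this run were not below the limit. Mmp3, stromelysin-1, which cuts many matrix proteins and activates other Mmp precursors, read 8.24, 7.57 and 6.58 with hPTH(1-34), 7.79, 8.28 and 7.08 with bPTH(7-34) and 7.95, 7.72 and 7.30 with vehicle. Its hPTH(1-34) arrays spanned both other groups, and the difference from vehicle was -0.19 ± 0.42 (-1.14 to 0.75), so a 2-fold fall was within the interval. Mmp12, the macrophage elastase, read 2.68, 2.46 and 2.29 with hPTH(1-34), 2.46, 2.46 and 2.32 with bPTH(7-34) and 2.84, 2.49 and 2.35 with vehicle. Mmp27 was close to the limit, with 1.90, 1.72 and 1.46 with hPTH(1-34), 1.55, 1.60 and 1.72 with bPTH(7-34) and 1.72, 2.13 and 1.92 with vehicle.

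**Figure D3:**
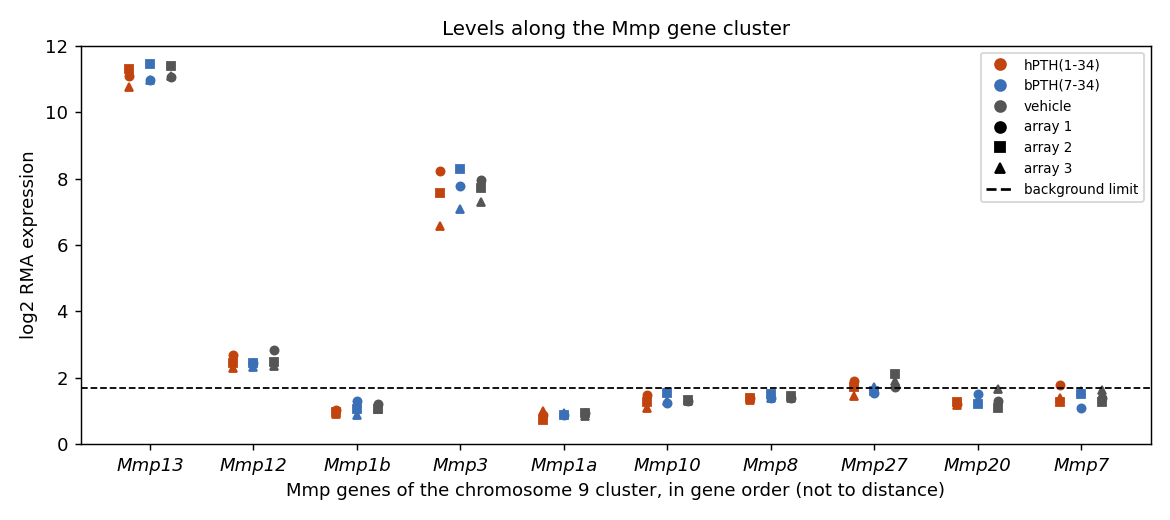
Log2 RMA expression (y axis) of the 10 neighbouring Mmp genes of chromosome 9, placed in their order along the chromosome (x axis, not to scale), with colours for hPTH(1-34), bPTH(7-34) and vehicle and a dashed line at the background limit of 1.68. Mmp13 and Mmp3 are far above the limit, Mmp12 and Mmp27 are nearer to it, 6 genes have group means below it, and the groups overlap at Mmp13, Mmp3, Mmp12 and Mmp27.

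The gelatinases cut denatured collagen. Mmp2 read 11.45, 11.38 and 11.27 with hPTH(1-34), 11.28, 11.28 and 11.30 with bPTH(7-34) and 11.41, 11.27 and 11.32 with vehicle. Its difference of hPTH(1-34) from vehicle was 0.03 ± 0.09 (-0.16 to 0.23), one of the narrower intervals. Mmp14, the membrane-anchored protease that activates the Mmp2 precursor, read 10.16, 9.86 and 9.83 with hPTH(1-34), 9.87, 9.92 and 9.92 with bPTH(7-34) and 10.05, 9.90 and 9.92 with vehicle, a difference of -0.01 ± 0.11 from vehicle (-0.25 to 0.23). Mmp9, the gelatinase B of osteoclasts and other blood-lineage cells, read 6.51, 5.75 and 5.47 with hPTH(1-34), 6.02, 6.02 and 5.62 with bPTH(7-34) and 6.39, 6.02 and 6.11 with vehicle. The array numbered 1 was the highest in both the hPTH(1-34) and vehicle groups, and the difference of hPTH(1-34) from vehicle was -0.26 ± 0.25 (-0.82 to 0.29).

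Among the remaining Mmp genes, Mmp19 and Mmp11 had separated groups without passing. Mmp19, a basement membrane protease, read 6.43, 6.55 and 6.51 with hPTH(1-34), 6.32, 6.31 and 6.39 with bPTH(7-34) and 6.40, 6.25 and 6.38 with vehicle. All hPTH(1-34) arrays were above the 6 others, by a small margin, and the difference from vehicle was 0.15 ± 0.08 (-0.04 to 0.34; adjusted p = 0.638). Mmp11, stromelysin-3, read 3.00, 2.87 and 2.64 with hPTH(1-34), 3.12, 3.17 and 3.50 with bPTH(7-34) and 3.05, 3.05 and 3.21 with vehicle. The difference of hPTH(1-34) was -0.43 ± 0.13 from bPTH(7-34) (adjusted p = 0.298) and -0.27 ± 0.13 from vehicle (adjusted p = 0.598), and its dimmer cluster gave -0.11 ± 0.10 from vehicle. Mmp25, a membrane-anchored Mmp of leukocytes, lay near the limit, at 2.17, 2.06 and 1.77 with hPTH(1-34), 1.83, 1.71 and 1.62 with bPTH(7-34) and 1.92, 1.79 and 1.63 with vehicle. Mmp17 gave 2.75 on 7 arrays and, like Adamts13, could show little change. The others overlapped between the groups: over all 9 arrays, Mmp16 ran from 4.70 to 5.64, Mmp23 from 7.38 to 7.71, Mmp24 from 2.58 to 3.06 and Mmp28 from 3.62 to 4.27.

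The inhibitors did not pass in any comparison. Timp1 read 11.32, 11.02 and 10.62 with hPTH(1-34), 10.87, 10.98 and 10.61 with bPTH(7-34) and 11.17, 10.65 and 10.69 with vehicle, a difference of 0.15 ± 0.20 between hPTH(1-34) and vehicle (-0.30 to 0.60). Timp2, which also takes part in Mmp2 activation by Mmp14, read 10.60, 10.66 and 10.70 with hPTH(1-34), 10.65, 10.54 and 10.71 with bPTH(7-34) and 10.71, 10.61 and 10.65 with vehicle, a difference of 0.00 ± 0.08 (-0.19 to 0.19). Its 9 arrays spanned only 10.54 to 10.71. Timp3, the main inhibitor of the aggrecanases Adamts4 and Adamts5, read 7.81, 7.35 and 7.18 with hPTH(1-34), 7.71, 7.34 and 7.20 with bPTH(7-34) and 7.84, 7.29 and 7.14 with vehicle. Array number 1 was highest in every group, and the hPTH(1-34) minus vehicle difference was 0.02 ± 0.22 (-0.48 to 0.53). Timp4 was below the background limit, with 1.19, 0.99 and 0.93 with hPTH(1-34), 0.99, 0.99 and 1.22 with bPTH(7-34) and 0.99, 1.03 and 0.96 with vehicle.

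Counted over the families, 0 of 44 members passed for hPTH(1-34) against vehicle, where 0.451% of all 23521 clusters did (106 clusters), and 4 members had an unadjusted p under 0.05 by limma, against 9.31% of all clusters. For hPTH(1-34) against bPTH(7-34), 1 of 44 passed, against 0.463% of all clusters, and 6 had an unadjusted p under 0.05, against 9.52%. For bPTH(7-34) against vehicle, 0 of 44 passed, as did 0% of all clusters, and 0 members had an unadjusted p under 0.05 by limma, against 3.32%. The F-test over the 3 groups called 0 of 44, against 0.383%, and 6 had an unadjusted p under 0.05, against 8.18%. These shares lie near those of all clusters, so the counts are no result about the families as a whole.

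The hPTH(1-34) and vehicle arrays did not overlap for 7 of the 44 members (15.9%), 4 higher and 3 lower, against 10.7% of all clusters, 6.08% higher and 4.58% lower. One of the lower ones, Mmp1b, was below the background limit. The hPTH(1-34) and bPTH(7-34) arrays did not overlap for 7 members, 4 higher and 3 lower, against 11.1% of all clusters, 5.99% higher and 5.1% lower. The bPTH(7-34) and vehicle arrays overlapped for all 44, while 5.29% of all clusters did not. Against all 6 other arrays at once, hPTH(1-34) stood apart for 6 members, Adamts3, Adamts4, Adamts9 and Mmp19 higher and Adamts5 and Mmp11 lower, against 5.78% of all clusters, 3.53% higher and 2.25% lower. Differences of hPTH(1-34) from vehicle larger than 0.5 on the log2 scale occurred in 4 of 44 members and 4.13% of all clusters. Between hPTH(1-34) and bPTH(7-34) they occurred in 4 members and 3.77% of all clusters, and between bPTH(7-34) and vehicle in 0 members and 1.01%. The median difference of the members was -0.04, and their median size was 0.09, against 0.00 and 0.11 over all clusters.

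**Figure D4:**
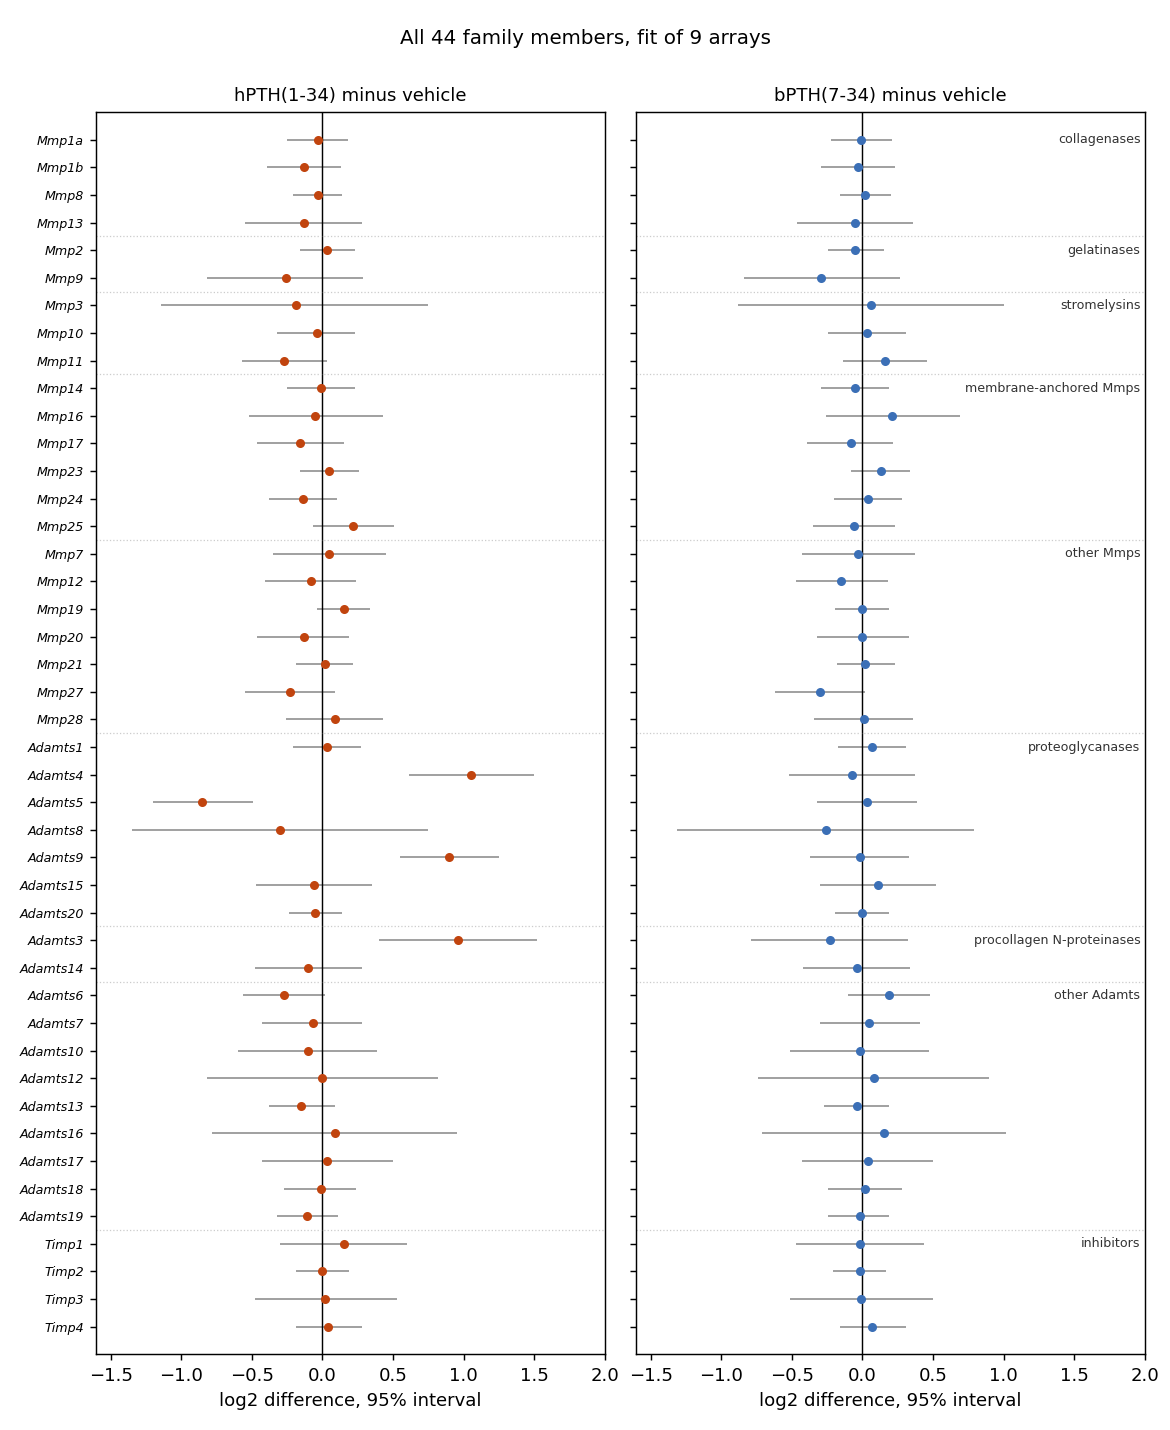
Log2 difference with its 95% interval (x axis) for each of the 44 members (y axis), for hPTH(1-34) and bPTH(7-34), each minus vehicle. For hPTH(1-34) the intervals of Adamts4, Adamts3, Adamts9 and Adamts5 leave out 0, and for bPTH(7-34) all intervals include 0.

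The bPTH(7-34) minus vehicle differences ran from -0.30 to 0.21, with a median size of 0.04. The lowest was Mmp27, at -0.30 ± 0.14 (-0.62 to 0.02). Both peptides were compared with the same vehicle arrays, so their differences share the vehicle values. For most members the precision was limited: the 95% intervals reached a median of 0.32 to either side of the log2 difference, and the widest, that of Adamts8, reached 1.05.

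Other genes of the system were counted as lists. Of 31 other metalloproteinases and regulators (31 measured), 0 passed by limma for hPTH(1-34) against vehicle, with a median of 0.00. Those with the smallest p were Tll1, an enzyme that cuts procollagen C-propeptides, and Adam17, the TNF-releasing sheddase. Tll1 read 7.55, 7.86 and 7.69 with hPTH(1-34), 7.47, 7.21 and 7.47 with bPTH(7-34) and 7.47, 7.31 and 7.38 with vehicle (0.31, adjusted p = 0.42). Adam17 read 7.61, 7.20 and 7.15 with hPTH(1-34), 7.52, 7.46 and 7.51 with bPTH(7-34) and 7.67, 7.59 and 7.65 with vehicle (-0.32, adjusted p = 0.451).

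Of 17 matrix substrates, 16 were measured, and 1 fell with hPTH(1-34) relative to vehicle, 15 did not pass, and the median was 0.01. The one that fell was Thbs1, thrombospondin-1, a matrix glycoprotein that Adamts1 can cut. It read 10.38, 10.28 and 10.32 with hPTH(1-34), 10.97, 11.16 and 11.28 with bPTH(7-34) and 10.97, 11.25 and 11.02 with vehicle, a difference of -0.75 ± 0.11 from vehicle (adjusted p = 0.0338). All hPTH(1-34) arrays lay below the other 6. Vcan, versican, a substrate of Adamts9, Adamts4 and Adamts5, was looked at after its values were seen. It read 9.06, 9.11 and 9.06 with hPTH(1-34), 8.71, 8.47 and 8.68 with bPTH(7-34) and 8.78, 8.49 and 8.57 with vehicle, a difference of 0.46 ± 0.11 from vehicle that did not pass (adjusted p = 0.142). Acan, aggrecan, lay near the background limit, with 1.86, 2.02 and 2.00 with hPTH(1-34), 1.46, 1.70 and 1.86 with bPTH(7-34) and 1.86, 1.91 and 1.86 with vehicle.

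Of 21 known regulators of Mmp13, 19 were measured, while Runx2 and Fosl1 had no single-gene cluster. Of the 19, 1 rose with hPTH(1-34) relative to vehicle and 18 did not pass. The median difference was 0.23, against 0.00 over all clusters. This list was chosen with earlier results of these data known, so the contrast is a description. The one that rose was Crem, a cAMP-responsive transcription factor whose short form Icer is a repressor. It read 2.74, 3.04 and 2.98 with hPTH(1-34), 2.07, 2.30 and 2.17 with bPTH(7-34) and 2.29, 2.16 and 2.30 with vehicle, a difference of 0.67 ± 0.11 from vehicle (adjusted p = 0.0442). For bPTH(7-34) against vehicle, 0 genes of these lists passed by limma, where 0% of all clusters did.

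Markers of cell types were read on the same arrays, and 0 of each list passed for hPTH(1-34) against vehicle by limma. The summed level of 9 macrophage and osteoclast markers (log2 of the sum) was 8.42 to 8.82 with hPTH(1-34), 8.49 to 8.84 with bPTH(7-34) and 8.61 to 8.81 with vehicle. Ctsk had the highest level of this list on every array and is the largest part of each sum, so the sum says little about the other markers. Adgre1, the macrophage marker F4/80, read 6.37, 4.83 and 3.78 with hPTH(1-34), 5.33, 5.91 and 3.81 with bPTH(7-34) and 6.29, 4.82 and 5.39 with vehicle. The hPTH(1-34) array numbered 1, the one nearest the other groups for Adamts9, Adamts4, Adamts5 and Adamts3, was thus the highest in Adgre1 of its group. That array was also the highest of its group for Ptprc, Csf1r, Cd68, Itgam, Calcr and Oscar of the same list, with Oscar below the background limit. It was not the highest for Acp5 and Ctsk, the remaining markers of the list. On the hPTH(1-34) arrays Acp5 read 4.85, 5.15 and 4.81, and Ctsk read 7.76, 8.02 and 8.02. The part of macrophage and osteoclast cells in the differences was not tested. The 5 neutrophil markers, of which 4 were below the limit, summed to 3.69 to 3.87 with hPTH(1-34), 3.69 to 3.82 with bPTH(7-34) and 3.58 to 3.68 with vehicle. The 5 chondrocyte markers summed to 8.17 to 9.06 with hPTH(1-34), 8.10 to 9.26 with bPTH(7-34) and 8.22 to 9.0 with vehicle. The 4 endothelial markers summed to 4.09 to 4.27 with hPTH(1-34), 4.01 to 4.69 with bPTH(7-34) and 4.02 to 4.52 with vehicle, and the 6 osteoblast markers to 12.18 to 12.46, 12.21 to 12.39 and 12.20 to 12.42 in the same order of groups. The osteoblast sum is nearly all Col1a1. Alpl, the alkaline phosphatase of mineralising osteoblasts, was looked at after its values were seen and read 6.32, 6.73 and 6.38 with hPTH(1-34), 5.32, 5.62 and 5.51 with bPTH(7-34) and 5.26, 5.86 and 5.39 with vehicle. All its hPTH(1-34) arrays were above the other 6, and the difference from vehicle, 0.97 ± 0.17 (1.96-fold), did not pass (adjusted p = 0.0601). The other measured osteoblast markers differed from vehicle by -0.35 (Pth1r), -0.01 (Ibsp), 0.00 (Col1a1), 0.08 (Sp7) and 0.23 (Bglap) with hPTH(1-34).

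The calls for the 4 leading Adamts genes moved with the processing. For Adamts9 the adjusted p of hPTH(1-34) against vehicle ran from 0.00641 to 0.231 over 20 alternative settings and passed in 8. For Adamts4 it ran from 0.0234 to 0.262 and passed in 4 of 20, for Adamts5 from 0.00429 to 0.262 and passed in 5 of 20, and for Adamts3 from 0.0118 to 0.497 and passed in 1 of 19. The log2 differences kept their sign in all of these settings, between 0.78 and 1.08 for Adamts9, 0.86 and 1.22 for Adamts4, -1.05 and -0.70 for Adamts5 and 0.70 and 1.27 for Adamts3. Mmp13 passed in 0 of 20 settings, with differences between -0.27 and 0.01. Against bPTH(7-34), the comparison in which Adamts9 was called, Adamts9 passed by limma in 9 of 20 alternative settings. Its adjusted p there ran from 0.00603 to 0.197, with log2 differences between 0.80 and 1.10.

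**Figure D5:**
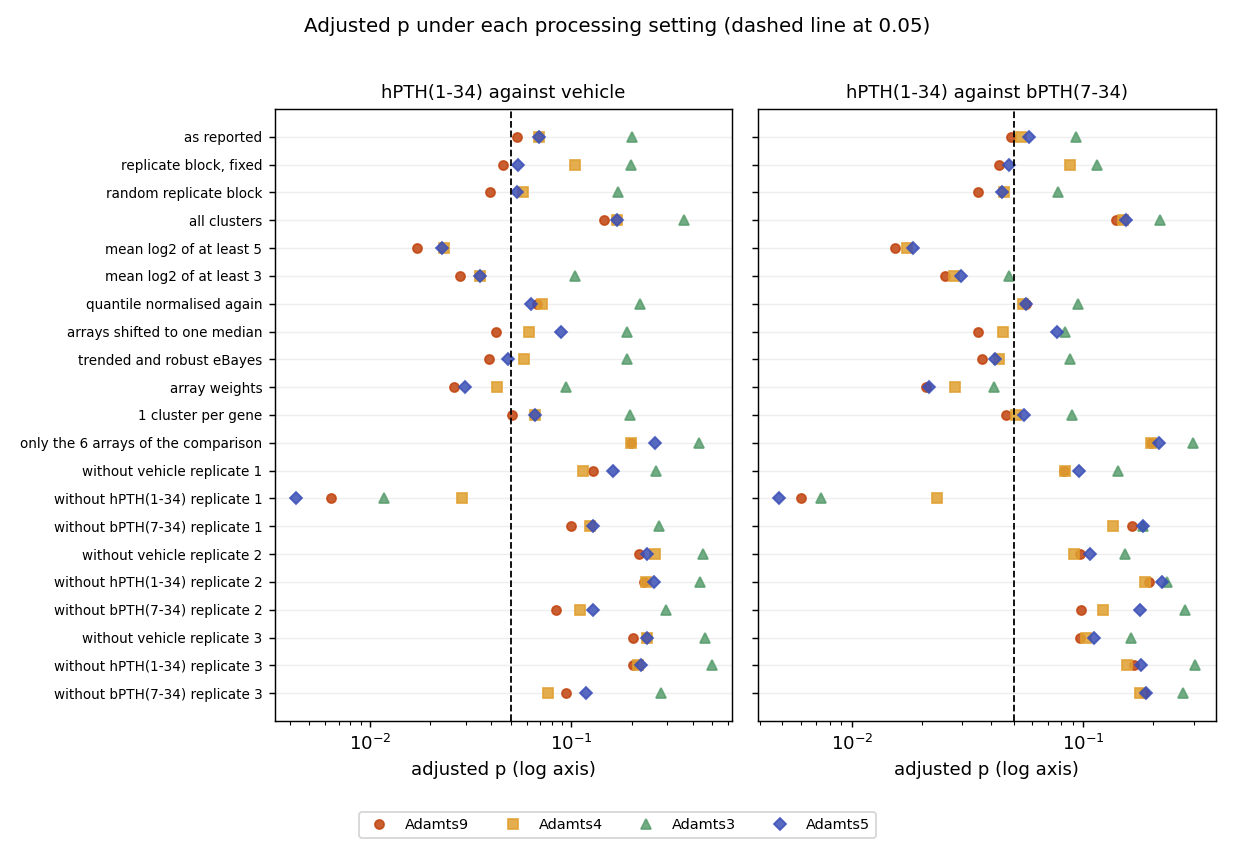
Adjusted p (x axis, log scale) of Adamts9, Adamts4, Adamts3 and Adamts5 for hPTH(1-34) against vehicle and against bPTH(7-34), under each processing setting (y axis), with a dashed line at 0.05. Points of Adamts9, Adamts4 and Adamts5 fall on both sides of the line, and without the hPTH(1-34) array numbered 1 all 4 genes lie left of it. That array was picked because it lay closest to the other groups for these same genes.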

How the data were processed

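The values were log2 RMA expression per transcript cluster of Affymetrix Mouse Gene 2.0 ST arrays (100 ng of RNA), which the authors deposited after processing with Affymetrix Expression Console and RMA, per the submitters' processing notes (versions not given). RMA normalises by quantiles, so a shift shared by most genes cannot be seen. Of 41345 clusters, 23521 had 1 gene symbol, 1814 several and 16010 none in the platform annotation. The number of arrays limits the precision.

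Here limma 3.58.1 in R 4.3.3 (lmFit, eBayes) was fitted once to the 9 arrays, with treatment as the sole factor (6 residual and 3.2 prior degrees of freedom), with Benjamini-Hochberg adjustment over the 23521 clusters in each comparison. The method was tested on simulated data with independent noise and no effect of array number. Smaller changes were also simulated, but recovery was required only for changes larger than any member showed. Passing the test therefore does not show that changes of the size reported here are recovered. Errors of levels are standard deviations, and errors of differences are standard errors of the fit. The 16 members named by rule were Mmp13 and Adamts9, those past 0.05, per family the 3 of lowest p in the hPTH(1-34) and vehicle comparison and the 3 with the highest vehicle mean, and the 2 with the smallest p for bPTH(7-34). Other lists gave genes past 0.05 and otherwise up to 2 with the smallest p. Others named were chosen after their values were seen. The members and lists were chosen with earlier results of these data known.

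The labels do not say that a shared array number marks a shared preparation, so the number did not enter the fit. Alternatives were the array number as a block, other cluster sets and filters, normalisation, eBayes and weights, 6 arrays only and each array left out. Plots used matplotlib 3.10.9 in Python 3.11.15.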

Additional observations from a re-analysis of the deposited data

How the results depend on the processing

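With 0 members called for hPTH(1-34) against vehicle, the count was 1 with the array number as a replicate block, fixed or random, or with arrays shifted to one median, 2 with a trended and robust eBayes, 3 with array weights or with a mean log2 of at least 5 (18 members tested) or 3 (25 tested), and 0 to 4 with single arrays left out. Against bPTH(7-34) (1 called) it was 2 with the fixed replicate block or shifted arrays, 3 with the random block, trended eBayes or a mean of at least 5, 4 with array weights or a mean of at least 3, 0 with all clusters, quantile normalisation or 6 arrays, and 0 to 4 with arrays left out. The F-test (0) called 1 member with the random block, shifted arrays or trended eBayes, 3 with array weights or either filter, and 0 to 4 with arrays left out. No member passed for bPTH(7-34) against vehicle in any setting run. Over all clusters, the 106 called against vehicle became 16 with all clusters, 182 and 186 with the filters at 5 and 3, 166 with array weights, 0 with 6 arrays and 0 to 259 with arrays left out; the 109 against bPTH(7-34) became 3, 211, 215, 204, 0 and 2 to 262; the 90 of the F-test became 2, 170, 154 and 157, 59 with the fixed replicate block, and 2 to 198 with arrays left out. Fewer clusters tested is part of the filters' construction; the cause of the other shifts was not tested. The fixed replicate block called Adamts9 against vehicle (adjusted p = 0.046) and Adamts9 and Adamts5 against bPTH(7-34) (0.0434 and 0.0479). The random block called Adamts9 against vehicle (0.0395), Adamts9, Adamts5 and Adamts4 against bPTH(7-34) (0.0351, 0.0445 and 0.0453) and Adamts9 in the F-test. Neither block changed another member's call. The labels give no pairing. Deviations from the group means of the 9 pairs of arrays with one number correlated at 0.065 to 0.364 over all clusters (6 above 0.1) and at 0.07 to 0.601 over the brighter clusters, whose mean reached 5 (8 above 0.1), and those of different numbers at -0.294 to 0.138 and -0.585 to 0.237. Of the 9 arrays, 8 correlated best with one of their own number over all clusters, and 6 did so over the brighter ones. Not every pair was above 0.1, so the numbers were not taken as pairs. Differences near 0 changed sign with arrays left out: against vehicle, hPTH(1-34) gave -0.27 to 0.01 for Mmp13, -0.01 to 0.08 for Mmp2, -0.11 to 0.05 for Mmp14, -0.04 to 0.10 for Adamts1, -0.02 to 0.33 for Timp1, -0.16 to 0.23 for Timp3 (-0.01 with quantile normalisation) and -0.03 to 0.10 for Timp4, and bPTH(7-34) gave -0.22 to 0.06 for Mmp13 (0.01 with quantile normalisation), -0.17 to 0.08 for Adamts4 and -0.11 to 0.03 for Adamts9. Of the members, 11 were below the background limit at the 95th percentile, 9 at the 90th and 14 at the 99th.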

Other observations

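The spread by array number was set beside the spread by treatment, for the members and for all clusters. Of the 33 members not below the background limit, 8 had the same array number highest in all 3 groups and 9 had the same one lowest, against 15.6% and 14.4% of all 14933 clusters not below it. In 19 of the 33, the means of the 3 array numbers spanned more than the means of the 3 groups, as they did in 48.5% of those 14933 clusters. Where neither has an effect, either span is as likely to be the larger, so these counts are a description. For Timp3 the number means spanned 0.61 on the log2 scale and the group means 0.03. For Mmp3 the spans were 1.01 and 0.25, and for Adamts8 they were 1.32 and 0.30. The labels do not say what the array numbers share.

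Some markers of blood-lineage cells varied widely within groups, and others did not. Acp5 had SDs of 0.19 with hPTH(1-34), 0.22 with bPTH(7-34) and 0.01 with vehicle, and Ctsk had 0.15, 0.13 and 0.15. Cd68, a macrophage marker, read 5.66, 4.49 and 3.52 with hPTH(1-34), 4.78, 5.12 and 3.55 with bPTH(7-34) and 5.79, 4.47 and 4.66 with vehicle, and Ptprc, the leukocyte antigen CD45, read 3.03, 1.75 and 1.21 with hPTH(1-34), 1.73, 2.16 and 1.51 with bPTH(7-34) and 2.29, 1.65 and 2.03 with vehicle. The hPTH(1-34) array numbered 1 was the highest of its group in Cd68, Ptprc, Mmp9, Mmp3 and Mmp12, and the array numbered 3 was the lowest in each. With bPTH(7-34) the array numbered 3 was also the lowest in each. There the array numbered 1 was below the array numbered 2 in Cd68, Ptprc and Mmp3, and level with it in Mmp9 and Mmp12. Whether blood-lineage cells account for the spread of Mmp9, Mmp3 or Mmp12 was not tested.

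Of the chondrocyte markers, Col2a1 and Comp also followed the array number, while Sox9, Matn3 and Acan did not do so in every group. Col2a1 read 5.92, 7.27 and 7.25 with hPTH(1-34), 5.90, 7.07 and 7.23 with bPTH(7-34) and 5.99, 7.09 and 7.15 with vehicle. Comp read 6.97, 7.89 and 8.12 with hPTH(1-34), 6.76, 7.57 and 8.41 with bPTH(7-34) and 7.01, 7.72 and 8.04 with vehicle. The array numbered 1 was the lowest in every group for both genes, while the groups overlapped. Sox9 read 6.58, 6.65 and 6.56 with hPTH(1-34) and 6.63, 6.45 and 6.65 with vehicle. Matn3 read 2.00, 2.30 and 1.93 with bPTH(7-34), and Acan read 1.86, 1.91 and 1.86 with vehicle.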
